A study of Mus musculus with 576 samples.

Results

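The genes described here are the 62 semaphorin, plexin, ephrin and netrin guidance genes, chosen by their mouse symbols from the 36658 genes of the count tables. They comprise 20 semaphorins (classes 3 to 7), 10 plexin genes counting the co-receptor Nrp2, 14 Eph receptors, 8 ephrins, 4 netrins and 6 netrin receptors (Unc5a to Unc5d, Dcc and Neo1), and all 62 were present in the tables. They were measured by Smart-seq2, a plate-based method with 1 library per sorted cell, in GFP+ cells sorted from dorsal pancreas (mouse, embryonic day 12.5). In Nkx2.5-Cre;mTmG and Nkx3.2-Cre;mTmG embryos (called the Nkx2.5 and the Nkx3.2 line), the mTmG reporter switches to membrane GFP once Cre has been active, and all descendants keep it, so a labelled cell need not express the driver when it is sorted. Prox1-GFP embryos (Prox1 line) carry a transgene, Tg(Prox1-EGFP), in which GFP reads out Prox1 activity. Both Cre drivers are knock-in alleles of the genes they report, the embryos were on a C57BL/6J background and not sexed, and none was treated. Each line filled 2 plates of 96 cells (6A and 6B for Nkx2.5, 7A and 7B for Nkx3.2, 8A and 8B for Prox1). The labels name no embryo, animal or litter, so each line counts as 1 sample. No test or p-value is given, and cells are not replicates.

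Guidance molecules were first described as cues that attract or repel growing axons, and they also act between epithelia, mesenchyme and vessels of developing organs. Semaphorins bind plexins, and most secreted class 3 semaphorins need a neuropilin co-receptor such as Nrp2 to do so. Ephrins are anchored in the membrane, those of the A class by a lipid anchor and those of the B class by a transmembrane domain, so that they and their Eph receptor kinases work between cells in contact. Netrins are laminin-related secreted proteins read by Dcc and neogenin (Neo1), and by the Unc5 receptors, which are known for repulsion. In the pancreas at this stage a branching epithelium with acinar, ductal and endocrine precursors grows into a surrounding mesenchyme that is covered by a mesothelium.

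Of the 576 cells, 549 passed the filters on genes, counts and mitochondrial share. Passing cells held between 224814 and 1512736 counts, with line medians of 1056674 (Nkx2.5), 896115 (Nkx3.2) and 808006 (Prox1), while the median number of genes per cell was lowest in the Nkx2.5 line (5750, against 7235 and 6993). Clusters built without the guidance genes, and lists of marker genes, put 87 cells in an epithelial, 20 in an endocrine, 28 in a mesothelial and 413 in a mesenchymal state. The remaining cell, of the Prox1 line, was led by immune markers and was left out of the states. The epithelial and endocrine cells all came from the Prox1 line, and the mesothelial cells from the Nkx3.2 (23 cells) and Nkx2.5 (5 cells) lines, so that a level in these states cannot be told apart from the line and its sort. The mesenchymal cells came from all 3 lines (87 and 81 on the Nkx2.5 plates 6A and 6B, 92 and 76 on the Nkx3.2 plates 7A and 7B, and 33 and 44 on the Prox1 plates 8A and 8B). The libraries made from Prox1-GFP cells carry a separate numbering, so that for these cells the line cannot be told apart from a library batch. The markers followed the states. The 15 endocrine markers summed to 49715 CPM (counts scaled so that all genes of a group sum to 1000000) in endocrine cells, against 142.97 in epithelial and 4.02 in mesenchymal cells, and the 7 mesothelial markers to 1700 CPM in mesothelial cells, against 2.81 in mesenchymal cells. Mesothelial cells also held 2319 CPM of the 10 mesenchymal markers, against 4756 CPM in mesenchymal cells. A level is the CPM of all cells of a group as 1 sum, and its exact 95% Poisson interval covers counting error only, since PCR copies were counted.

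The guidance genes were unevenly spread over the states. Of the 62 genes, 42 reached 10 CPM in at least 1 state, 15 lay between 1 and 10 CPM in their highest state and 5 stayed under 1 CPM in every state. Of the 42, 20 were highest in mesothelial, 12 in mesenchymal, 5 in epithelial and 5 in endocrine cells, or 47.6%, 28.6%, 11.9% and 11.9%. Among all 12035 genes that reached 10 CPM in a state, the same shares were 25.2%, 21.2%, 23.6% and 30.05%. The highest state was taken without regard to the size of the gap or to single cells. Sema6a, for example, was 80.9 CPM in mesothelial and 78.7 CPM in mesenchymal cells, and 1 cell held 50% of the mesothelial counts of Ephb1. Levels per kilobase of the longest transcript (CPM per kb), which allow genes to be compared with each other, set out which members led each family. Plxnb2, a receptor for class 4 semaphorins, was the leading plexin in every state, at 71.2 CPM per kb in mesothelial, 41.2 in mesenchymal, 19.1 in epithelial and 11 in endocrine cells. The other families changed leader with the state. Among Eph receptors Epha4 led in mesenchymal (65.4 CPM per kb) and endocrine cells (5.05, with 46.1% of counts in 1 cell), Epha7 in mesothelial (33.2) and Ephb4 in epithelial cells (14.2). Among ephrins Efna5 led in mesenchymal (52), Efna1 in mesothelial (113.7), Efna4 in epithelial (21.3) and Efna2 in endocrine cells (9.53). Semaphorins were led by Sema5a in mesenchymal cells (35.1 CPM per kb), by Sema3c in mesothelial (14.4) and epithelial cells (11.2), and by Sema4a in endocrine cells (10.3).

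**Figure D1:**
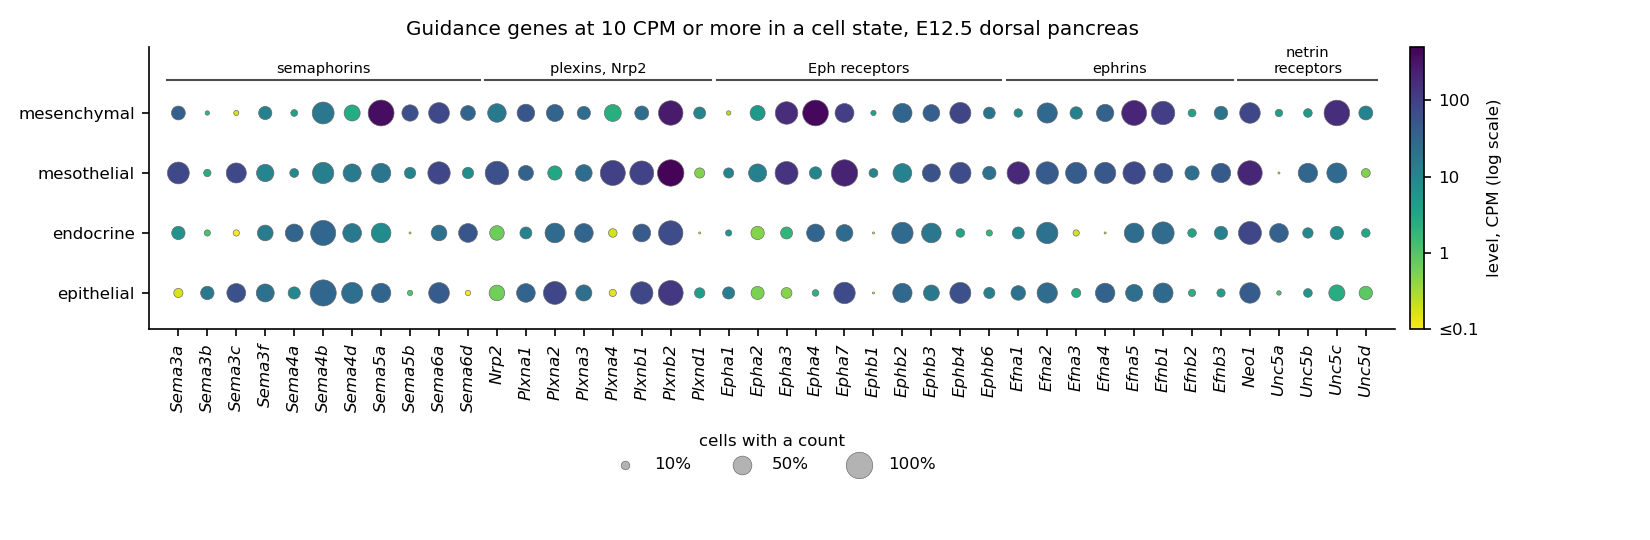
Dot plot of the 42 guidance genes that reached 10 CPM in a cell state, grouped by family. Rows are the 4 states, the colour gives the level of the summed counts in CPM on a log scale and the size of a dot the share of cells with a count. No netrin is drawn because none reached 10 CPM, and the dots for Epha4, Sema5a, Efna5 and Unc5c are darkest in mesenchymal cells.

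Promoters are shown for 3 genes with clear differences between states, Epha4 and Sema5a, with the highest mesenchymal levels per kb of their families, and Sema3c, which was present in epithelial and mesothelial cells and all but missing from mesenchymal and endocrine cells. Epha4 (ENSMUSG00000026235) lies on the minus strand at chr1:77367185-77515088, Sema5a (ENSMUSG00000022231) on the plus strand at chr15:32244810-32696341 and Sema3c (ENSMUSG00000028780) on the plus strand at chr5:17574281-17730268 of GRCm38. Their promoter sequences, from 250 bases before to 50 after the start in RefSeq's table (GRCm38.p6), are shown because these genes move with the state. They are read 5′ to 3′ on the strand of the gene, with GC boxes (GGGCGG or CCGCCC) in capitals. The windows are chr1:77515039-77515338, chr15:32244563-32244862 and chr5:17574566-17574865, in the same order.
Epha4: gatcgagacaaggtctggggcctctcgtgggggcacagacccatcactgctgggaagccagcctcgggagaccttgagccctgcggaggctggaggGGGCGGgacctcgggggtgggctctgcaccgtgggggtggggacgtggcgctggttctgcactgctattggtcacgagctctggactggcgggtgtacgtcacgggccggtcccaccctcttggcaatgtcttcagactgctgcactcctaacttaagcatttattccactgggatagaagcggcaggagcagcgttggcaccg
Sema5a: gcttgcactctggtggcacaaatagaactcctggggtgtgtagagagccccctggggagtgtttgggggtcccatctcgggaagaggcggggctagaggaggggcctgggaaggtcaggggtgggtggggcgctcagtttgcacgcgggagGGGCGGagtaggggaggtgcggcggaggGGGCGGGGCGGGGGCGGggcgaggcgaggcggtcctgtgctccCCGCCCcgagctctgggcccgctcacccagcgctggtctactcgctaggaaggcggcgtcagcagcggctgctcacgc
Sema3c: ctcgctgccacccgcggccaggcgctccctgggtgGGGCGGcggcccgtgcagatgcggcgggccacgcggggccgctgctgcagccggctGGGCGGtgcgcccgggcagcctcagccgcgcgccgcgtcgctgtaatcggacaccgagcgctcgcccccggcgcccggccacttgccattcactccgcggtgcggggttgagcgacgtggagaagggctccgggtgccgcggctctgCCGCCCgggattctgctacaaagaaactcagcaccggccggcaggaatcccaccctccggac
These windows held 1, 5 and 3 GC boxes, and their GC content was 64%, 71.3% and 75.7%. None of them held the E-box CAGGTG, or CACCTG on the other strand, which Zeb and Snail factors bind. None held the forkhead core GTAAACA, which reads TGTTTAC on the other strand. RefSeq's table matched 53 of the 62 genes, with 67 promoters, of which 50 (74.6%) held a GC box, against 35.7% of all 32851 promoters. The E-box was in 8 of the 67 (11.9%, against 20.2% of all) and the forkhead core in 0 (against 3.65% of all). No motif is part of another, all were searched on both strands, and a match describes letters and not a binding site.

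Epithelial and mesenchymal cells of the Prox1 line shared line, plates and library batch, so this comparison asks how the guidance genes differ between the 2 tissue layers within Prox1-GFP cells. This mesenchyme was sorted by Prox1-GFP and need not stand for all pancreatic mesenchyme. The paper describes its mesenchymal subtype M-III as positive for Prox1. The 12 M-III markers summed to 2567 and 1519 CPM in mesenchymal cells of plates 8A and 8B, against 456 to 861 CPM on the plates of the other lines. Mesenchymal cells held the larger set. Of the 35 guidance genes at 10 CPM or more on either side, 15 were at least 2-fold higher in mesenchymal cells in both plates and 4 at least 2-fold higher in epithelial cells. Over all 10798 genes at that level the same rule counted 10.6% as lower and 11.2% as higher in epithelial cells. The median log2 ratio of the 35 genes (epithelial over mesenchymal) was -0.90, and that of all genes -0.00. The 87 epithelial cells were 49 of plate 8A and 38 of 8B, the 77 mesenchymal cells 33 and 44.

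Of the receptors higher in mesenchymal cells, the kinases Epha4 and Epha3 and the netrin receptor Unc5c stood at the highest levels. Epha4 was 392 and 389 CPM in mesenchymal cells of plates 8A and 8B and 1.11 and 3.27 CPM in epithelial cells, 182.9-fold apart over both plates (390 CPM, interval 385 to 395, against 2.13, interval 1.81 to 2.49). The plates agreed closely in the mesenchyme. In the epithelium a single cell held 72% of the Epha4 counts, and 5 of 87 cells held any, against 75 of 77 mesenchymal cells. Epha3 was 157.4 and 141.9 CPM in mesenchymal and 0.309 and 0.660 CPM in epithelial cells, a ratio of 312. Unc5c was 227 and 183.8 CPM against 0.851 and 4.36 CPM, a ratio of 80.1. Both receptors were lower in the epithelial cells of either plate than in the mesenchymal cells of either plate, which the rule largely sets in advance. Unc5c left traces in 32 of 87 epithelial cells (36.8%), a share that dropped to 9.20% when each cell was thinned to 100000 counts, against 87% of mesenchymal cells. Nrp2, a co-receptor of class 3 semaphorins, was 19.3 and 35.4 CPM in mesenchymal against 0.856 and 0.373 CPM in epithelial cells. Unc5d, a further repulsive netrin receptor, was 15.5 and 29.5 CPM against 1.08 and 0.608 CPM. Ephb3, a receptor of B-class ephrins, differed least among those counted, by 2.51-fold (41.1 against 16.4 CPM).

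Ligands were also counted on the mesenchymal side. Sema5a, a transmembrane semaphorin with thrombospondin repeats, was 365 and 337 CPM in mesenchymal and 25 and 39.9 CPM in epithelial cells, a ratio of 10.9. Its relative Sema5b was 8.73 and 28.5 CPM against 1.99 and 0 CPM. Both class 5 semaphorins were therefore lower in the epithelium, Sema5a from a level that 54% of epithelial cells still showed. Sema3a, a secreted repellent, was 28.6 and 14.1 CPM in mesenchymal against 0.129 and 0.202 CPM in epithelial cells. Sema6d, a transmembrane semaphorin, was 38.7 CPM in mesenchymal cells and was represented by 3 counts in all epithelial cells, a ratio of 950 with a counting interval of 325 to 4613. Of the ephrins, Efna5 was 228 and 302 CPM against 20.8 and 23.6 CPM, 12.3-fold apart. Efna3, Efnb3 and Efnb1 were lower in epithelial cells by smaller ratios (7.16, 3.98 and 2.71), and Efnb1 was not counted after thinning. The netrin Ntn3 was 13.1 and 10.9 CPM in mesenchymal cells, where 11 of 77 cells held it, and 39 counts in 1 epithelial cell made up its epithelial level of 0.530 CPM. Ntn3 was no longer counted when the highest cell of each plate was left out.

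The 4 genes higher in epithelial cells were 3 semaphorins and 1 receptor. Sema3c, a secreted class 3 semaphorin, was 53.5 and 70.5 CPM in epithelial and 0.0420 and 0.228 CPM in mesenchymal cells of the Prox1 line, a ratio of 403, and 44 of 87 epithelial against 4 of 77 mesenchymal cells held it. Epha1 was 17.1 and 10.51 CPM in epithelial cells and had 0 counts in mesenchymal cells of this line, at least 275-fold higher when 3 counts are taken as the limit of the summed mesenchymal cells. Sema4d, a ligand of Plxnb1, was 30.1 and 17.1 CPM against 1.43 and 0.794 CPM. Sema3b was 21.2 and 11 CPM against 6.93 and 3.87 CPM, with the mesenchymal counts in 2 of 77 cells. The groups did not overlap by plate for any of the 4, which the rule, applied within each plate, largely sets in advance. Summed mesenchymal markers were 16.2 and 36 CPM in the epithelial cells of plates 8A and 8B (8 and 7 of 10 markers above 0), and 5457 and 3802 CPM in the mesenchymal cells.

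**Figure D2:**
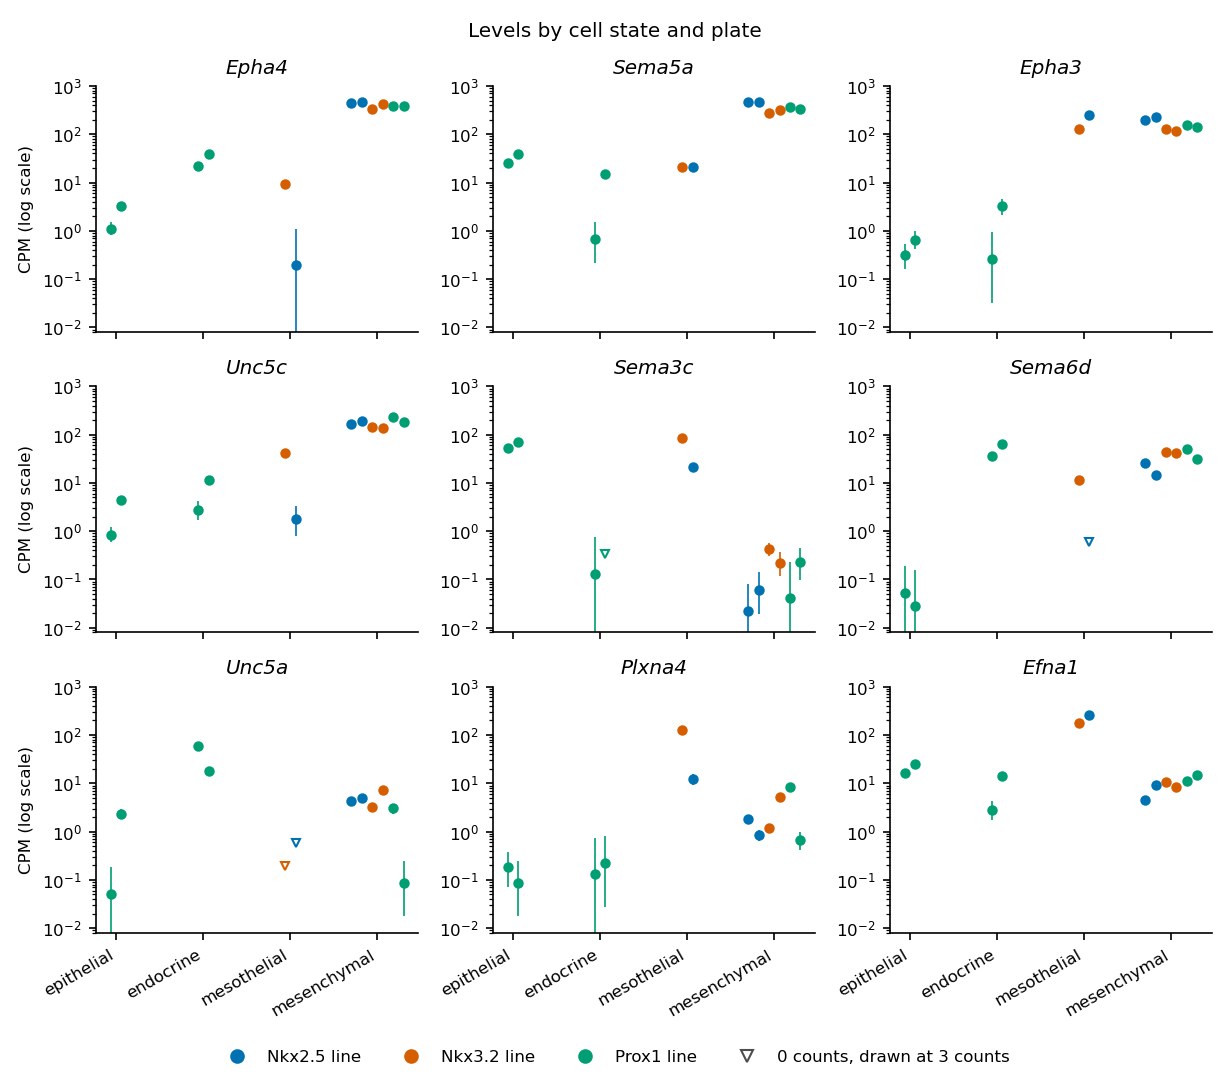
Levels in CPM (log axis) of 9 guidance genes by cell state, 1 point per plate or, for the mesothelial cells of the Nkx2.5 line, per line, coloured by line, with exact 95% Poisson intervals. Groups under 5 cells are not drawn, and triangles mark 0 counts, drawn at the level of 3 counts. Epha4, Sema5a, Epha3 and Unc5c are high in all 6 mesenchymal plates, while Sema3c is high in epithelial and mesothelial cells alone among the states.

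Endocrine cells were compared with epithelial cells of the same line and plates, which asks how the guidance genes differ between hormone-producing cells and the epithelium they arise from. The endocrine state rested on 20 cells, 10 on each plate, led by Gcg and Chgb. Of 29 guidance genes at 10 CPM or more on either side, 4 were at least 2-fold higher in endocrine cells in both plates and 6 at least 2-fold lower. Over all 11069 genes the rule counted 12.6% as higher and 16.3% as lower. The median log2 ratio was -0.56 for the 29 genes and -0.11 for all genes.

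The 4 genes higher in endocrine cells were 2 receptors and 2 transmembrane semaphorins. Sema6d was 35.7 and 63.8 CPM in endocrine cells of plates 8A and 8B, where 10 of 20 cells held it, and 0.0516 and 0.0287 CPM in epithelial cells, a ratio of 1252 with a counting interval of 427 to 6087. Unc5a was 58.3 and 18.4 CPM against 0.0516 and 2.35 CPM, with 97.6% of its 84 epithelial counts in 1 cell. Epha4 was 22.3 and 39.96 CPM against 1.11 and 3.27 CPM, 15-fold apart. The endocrine level of Epha4 was still far below the mesenchymal one of the same plates, and 9 of 20 endocrine cells held it, 1 of them with 46.1% of the counts. Without that cell the endocrine level of Epha4 fell from 31.96 to 18.5 CPM. Sema4a was 25.9 and 39.1 CPM in endocrine cells against 9.91 and 9.95 CPM, 3.33-fold apart, and was no longer counted without the highest cell of each plate. The 10 mesenchymal markers summed to 98.5 and 173.3 CPM in endocrine cells of plates 8A and 8B (7 and 4 of 10 above 0), against 16.2 and 36 CPM in epithelial cells, with Pdgfrb, Foxf1 and Twist1 at 0 in endocrine cells of both plates. The 8 markers of neural crest, glia and neurons summed to 118.1 and 124.4 CPM against 14.6 and 10.46 CPM, with Sox10 and Foxd3 at 0 in endocrine cells of both plates. The part of either in the endocrine levels of Epha4 and Sema6d was not tested.

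The 6 genes lower in endocrine cells included ligands and receptors of the epithelium. Sema3c was represented by 1 count in all endocrine cells against 61.5 CPM in epithelial cells. The ratio was 1018 with a counting interval of 182.7 to 40228, and 339 with the endocrine side set to 3 counts. Efna4, an A-class ephrin, had 0 counts in the 20 endocrine cells and 41.4 and 25.8 CPM in epithelial cells, at least 187.7-fold higher when 3 counts are taken as the limit of the summed endocrine cells. Ephb4, the receptor that binds Efnb2, was 76.8 and 44.7 CPM in epithelial cells and 5.85 and 1.22 CPM in endocrine cells. Sema3c and Efna4 were thus at the limit of detection in endocrine cells, and 2 of 20 endocrine cells held Ephb4. Sema3b and Ephb6, a kinase-dead Eph receptor, were each held by 1 endocrine cell, at 1.15 and 1.75 CPM, against 16.4 and 13 CPM in the epithelium, and Ephb6 was no longer counted without the highest cell of each plate. Sema5a was 0.665 and 15.3 CPM in endocrine against 25 and 39.9 CPM in epithelial cells. A single cell held 81.2% of the endocrine Sema5a counts, and without it the level over both plates fell from 8.63 to 1.73 CPM. Sema5a was not counted when cells were thinned to 100000 counts.

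Mesothelial and mesenchymal cells were compared within the Nkx2.5 and the Nkx3.2 line, to see which guidance genes set the surface layer of the organ apart from the mesenchyme beneath. Of 38 guidance genes at 10 CPM or more on either side, 10 were at least 2-fold higher in mesothelial cells in both lines and 7 at least 2-fold lower. Over all 10640 genes the rule counted 5.76% as higher and 8.5% as lower. The median log2 ratio was 0.54 for the 38 genes and -0.01 for all genes. The Nkx2.5 line gave 5 mesothelial cells, so that its values rest on few cells. Of the 23 mesothelial cells of the Nkx3.2 line, 20 were on plate 7B and 3 on 7A, while its mesenchymal cells were 76 and 92. In that line state and plate could therefore not be fully told apart.

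Ligands higher in mesothelial cells were Sema3c, Efna1, Efnb2, Efna3 and Sema3a. Sema3c was 21.1 CPM in mesothelial cells of the Nkx2.5 line and 94 CPM in those of the Nkx3.2 line, against 0.0409 and 0.345 CPM in mesenchymal cells, 430-fold apart over both lines. In the Nkx2.5 line it came from 1 of 5 cells, in the Nkx3.2 line from 15 of 23. Efna1, an A-class ephrin, was 266 and 164.5 CPM against 6.81 and 9.89 CPM, 22.5-fold apart. Efnb2 was 64.4 and 13.5 CPM against 4.17 and 3.67 CPM. Efna1 was held by most mesothelial cells of either line (3 of 5 and 17 of 23) and by few mesenchymal cells (5.36% and 11.9%). Efna3 was 23.1 and 48.4 CPM in mesothelial against 4.59 and 18.4 CPM in mesenchymal cells. Sema3a was 174.9 and 54.6 CPM against 59.2 and 21.3 CPM, 2.96-fold and 2.56-fold apart within the lines and 1.92-fold over both, since the Nkx2.5 line held few of the mesothelial cells.

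Receptors higher in mesothelial cells were Plxna4, Plxnb1, Nrp2, Unc5b and Neo1. Plxna4, a plexin that serves class 3 and class 6 semaphorins, was 12.1 CPM in mesothelial cells of the Nkx2.5 line and 118.98 CPM in those of the Nkx3.2 line, against 1.34 and 2.78 CPM, 47.9-fold apart over both lines. It was found in 22 of 23 mesothelial cells of the Nkx3.2 line. In mesenchymal cells many held a trace, and the shares of 41.7% and 51.2% dropped to 4.76% and 11.9% after thinning. Nrp2 was 79.2 and 59.3 CPM against 6.09 and 22.7 CPM, and Plxnb1 142.5 and 81.7 CPM against 16.4 and 26.8 CPM. Unc5b, a repulsive netrin receptor, was 33 and 28.9 CPM against 2.85 and 9.01 CPM. Neo1 was 333 and 165.3 CPM against 87 and 80.6 CPM, 2.38-fold apart. Neo1 was not counted with TMM scaling, the mean CPM of cells, states without clustering, resolution 1.0 or plate 7A left out. Its ratios over all cells were then 1.83 to 2.27, and its smallest ratios within a line 1.59 to 1.95. With states without clustering and with resolution 1.0 both ratios were 1.83, since 1 line was left to compare. The same loss of a line applied to every gene of this comparison, so these settings could not check agreement between the lines. Without the highest cell of each line, Sema3c, Plxna4, Nrp2, Plxnb1 and Neo1 were no longer counted, which left 5 of the 10, as 1 cell of 5 can carry a level of the Nkx2.5 line.

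The 7 genes lower in mesothelial cells were led by the genes with the highest mesenchymal levels. Epha4 was 0.198 and 13.9 CPM in mesothelial against 464 and 367 CPM in mesenchymal cells of the Nkx2.5 and Nkx3.2 lines, 38-fold apart. Sema5a was 21.3 and 17.4 CPM against 466 and 293 CPM, 21.1-fold apart. Epha4 and Sema5a were low in both lines. Unc5c was 1.78 and 34.5 CPM against 175.3 and 141.4 CPM, and Sema5b 0 and 14.2 CPM against 50.04 and 92.2 CPM. Plxna2, a plexin for class 3 and class 6 semaphorins, was 0.997 and 3.71 CPM against 47.2 and 19.4 CPM. Plxnd1, a plexin that can bind Sema3e without a neuropilin, was 0.395 and 0.537 CPM against 9.33 and 11.8 CPM, and was no longer counted without the highest cell of each line. Sema6d was 0 and 9.57 CPM against 20.2 and 43.3 CPM. Epha3, a relative of Epha4, was not counted, at 139.1 CPM in mesothelial and 171.4 CPM in mesenchymal cells of both lines. Of the 13 epithelial markers, 6 were above 0 in mesothelial cells of plate 7B, at a sum of 410 CPM, against 12.6 to 34 CPM in the mesenchymal plates. The 6 were Epcam, Krt8, Krt18, Cldn7, Spint2 and Sox9, of which the paper uses Krt18 to mark its adult mesothelial cluster. Cdh1, Cldn6, Spint1, Esrp1, Pdx1, Onecut1 and Foxa2 were at 0 in these mesothelial cells. The part of the epithelial markers in the mesothelial levels was not tested.

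**Figure D3:**
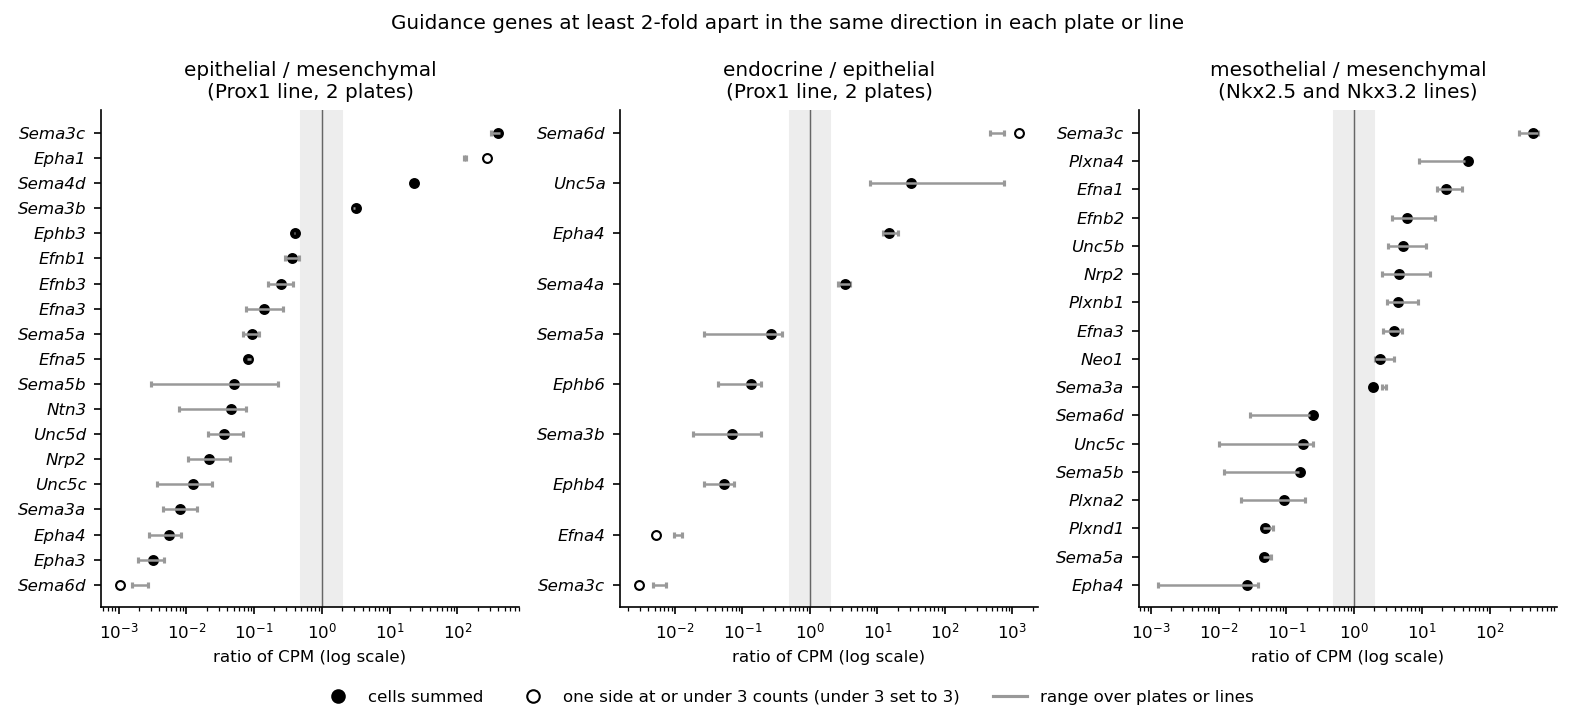
Ratio of CPM (log axis) of every guidance gene counted as at least 2-fold apart in the 3 comparisons of states. Points are the ratios of summed cells, grey bars the range over plates or lines, the band marks ratios from 0.5 to 2 and open circles genes with 0 to 3 counts on one side. A plate holds fewer counts than the sum of plates, so its limit of 3 counts is a higher level and an open point can lie beyond the grey bar. 15 of 19 genes lie on the mesenchymal side in the first panel and 10 of 17 on the mesothelial side in the last.

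Levels over whole lines mix the states. Over all passing cells, Epha4 was 450 CPM in the Nkx2.5, 327 in the Nkx3.2 and 158.8 in the Prox1 line, and Sema3c 0.646, 10.9 and 30.4 CPM. Lines were therefore compared within the mesenchymal state, which asks whether mesenchyme labelled through different drivers carries different guidance genes. Of 32 genes at 10 CPM or more on either side, 2 were at least 2-fold higher and 1 at least 2-fold lower in the Nkx2.5 than in the Nkx3.2 line in all 4 pairs of plates. Over all 10134 genes the rule counted 1.3% as higher and 1.97% as lower. The median log2 ratio was -0.13 for the 32 genes and 0.01 for all genes.

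Sema3a was 67.9 and 49.8 CPM on the Nkx2.5 plates and 24.5 and 16.4 CPM on the Nkx3.2 plates, 2.77-fold apart. The smallest ratio between a pair of plates was 2.03 for Sema3a, and it fell to 1.96, which ended the call, with TMM scaling, with states set without clustering and with clustering at resolution 1.0. Epha7, an Eph receptor of A-class ephrins, was 130.8 and 146.95 CPM against 49.3 and 54.2 CPM, 2.71-fold apart. For both genes the plates of the 2 lines did not overlap, which the rule requires of every gene it counts. Efna3 was 5.003 and 4.15 CPM on the Nkx2.5 plates and 15.95 and 22.2 CPM on the Nkx3.2 plates, 4.00-fold lower in the Nkx2.5 line. Sex-linked genes moved with the line. The Y-linked genes Ddx3y, Eif2s3y, Kdm5d and Uty summed to 336.6 and 302.6 CPM in mesenchymal cells of the Nkx2.5 plates, 3.85 and 4.29 CPM on the Nkx3.2 plates and 4.99 and 4.62 CPM on the Prox1 plates, although the study describes its embryos as of mixed sex, so that the sex of the embryos and the Nkx2.5 line cannot be told apart. The mesenchymal cells of the lines fell into different clusters, with 62 Nkx2.5 cells in cluster 2, which had Ddx3y and Kdm5d among its leading genes, and 43 and 34 Nkx3.2 cells in clusters 3 and 6. Within clusters 0, 1 and 5, which held cells of every line (84 of Nkx2.5 and 79 of Nkx3.2), Sema3a remained higher in the Nkx2.5 line (60.9 against 17.8 CPM) and Efna3 lower (1.6 against 11.5 CPM), Ephb6 and Efnb3 were also counted as lower (10.3 against 28.2 and 9.14 against 29.96 CPM), and Epha7 was 121.7 against 73.1 CPM and was not counted.

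Mesenchymal cells of the Prox1 line were compared with the same Nkx3.2 cells. Of 33 genes at 10 CPM or more, 2 were at least 2-fold higher and 1 at least 2-fold lower in the Prox1 line in all 4 pairs of plates, while over all 10123 genes the rule counted 1.17% as higher and 1.65% as lower. Unc5d was 15.5 and 29.5 CPM on the Prox1 plates and 5.87 and 6.72 CPM on the Nkx3.2 plates. Sema4b, a class 4 semaphorin, was 27.9 and 28.3 CPM against 11 and 11.4 CPM, with the plates of each line close to each other. Sema5b was 8.73 and 28.5 CPM against 87.8 and 99 CPM, 4.49-fold lower in the Prox1 line. Within clusters 0, 1 and 5 (52 of Prox1 and 79 of Nkx3.2), Sema5b was the only guidance gene still counted, at 19.3 against 83.1 CPM. Over these cells together Unc5d was 23.8 against 5.08 CPM (4.68-fold) and Sema4b 21.5 against 9.81 CPM (2.19-fold), but the smallest ratio between a pair of plates was 0.764 for Unc5d and 1.25 for Sema4b. Epha7 showed how far plates of 1 line can lie apart, at 243 CPM on plate 8A and 80.1 CPM on plate 8B. The median log2 ratio was 0.00 for the 33 genes and 0.01 for all genes.

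**Figure D4:**
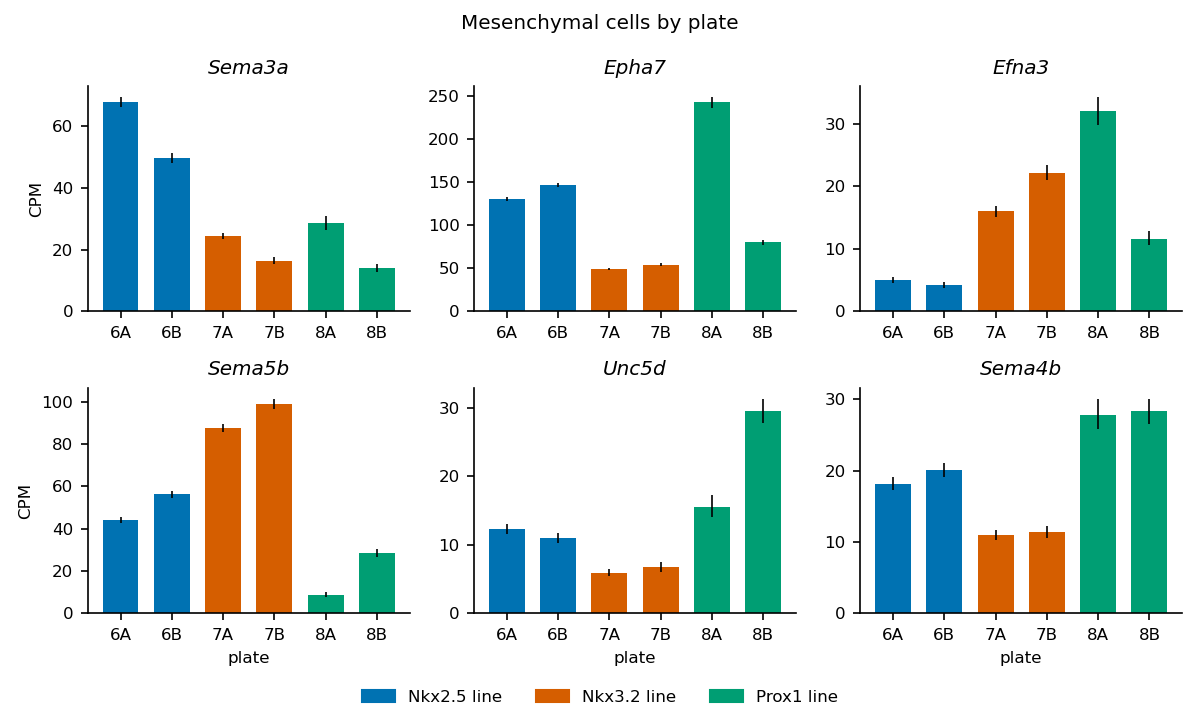
Levels in CPM of the 6 guidance genes counted as apart between lines, in mesenchymal cells of each plate, with exact 95% Poisson intervals for counting error. Bars start at 0 and are coloured by line. Sema3a and Epha7 are higher on both Nkx2.5 plates than on both Nkx3.2 plates, and Efna3 is lower. Epha7 shows the largest difference in CPM between the 2 Prox1 plates, and Sema5b also differs between them.

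Levels also differed between clusters of the mesenchyme. The 413 cells fell into 7 clusters, of which cluster 1 was called M-PI-like (proliferating), cluster 3 M-SpP-like, cluster 6 mural-like and cluster 10 M-III-like after marker lists derived from the study of these cells, and clusters 0, 2 and 5 stayed unnamed. No cluster was named M-II-like, although clusters 0 and 5 scored higher for the M-II list than for any other list of mesenchymal subclasses (mean z-score 0.39 and 0.42, against 0.19 and 0.19 for the next, M-I) and Megf10 of that list was among the leading genes of cluster 5. Cluster 2 scored 0.51 for M-II and 0.60 for M-I. Complement genes C1qb and C1qc were among the leading genes of the M-SpP-like cluster. Its leading genes were taken over all 65 of its cells, with the immune-marker cell that is left out of all levels here. The part of that cell in the complement genes was not tested. Cluster 10 held 20 cells, 14 of them of the Prox1 line. Of 43 guidance genes at 10 CPM or more in a cluster, 4 (9.3%) stayed within 2-fold over all 7 clusters (Plxnb1, Plxnb2, Ephb2 and Sema4b) and 18 (41.9%) differed 5-fold or more, against 32.7% and 24.3% of all 11357 genes at that level. Clusters can differ through a few cells, so each of these is a description.

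The genes that marked the mesenchyme as a whole were present in every cluster. Epha4, which the study names as an M-II gene, ranged from 225 CPM in cluster 6 to 491 CPM in cluster 5, whose top list was M-II, with 479, 404, 485, 311 and 409 CPM in clusters 0, 1, 2, 3 and 10. Sema5a ranged from 215 CPM in cluster 6 to 488 CPM in cluster 2. The mural-like cluster was thus lowest for both. Epha3 and Unc5c were lowest in cluster 3, at 62.3 and 81.9 CPM, and Epha3 was highest in cluster 2 (261 CPM) and Unc5c in cluster 10 (282 CPM). Epha7 was 15.4 CPM in cluster 3, 36.4 CPM in cluster 6, between 83 and 205 CPM in clusters 0, 1, 2 and 5, and 238 CPM in cluster 10. Within cluster 10 Epha7 was 18.4 CPM in the 6 Nkx3.2 cells and 327 CPM in the 14 Prox1 cells, so that levels within this cluster differed by line. Cluster 3 was the lowest cluster for 12 of the 43 genes (27.9%), against 12.7% of all genes.

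Cluster 10, the smallest, was the highest cluster for 21 of the 43 genes (48.8%), against 27% of all genes. Unc5c was held by all 20 of its cells, Efna3 by 11 of 20 (66.9 CPM, and 58.9 without the highest cell) and Sema6d by 11 of 20 (93.9 CPM, and 78 without the highest cell). Other high values of cluster 10 came from single cells, such as Sema4f, with 93.8% of its counts in 1 cell, and Sema3b, with all of them. Cluster 6 was highest for 9 genes (20.9%, against 14.9% of all genes). Without the highest cell of cluster 6, Sema5b was still at 112.5 CPM and Sema6a, 123.4 CPM with that cell, at 111.2 CPM. Nrp2 was 87.9 CPM in cluster 6 against 1.2 CPM in cluster 2, but 67.7% of its counts there were in 1 cell, and without that cell it was 29 CPM. The same cell held 35% of the Nrp2 counts of all mesenchymal cells.

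**Figure D5:**
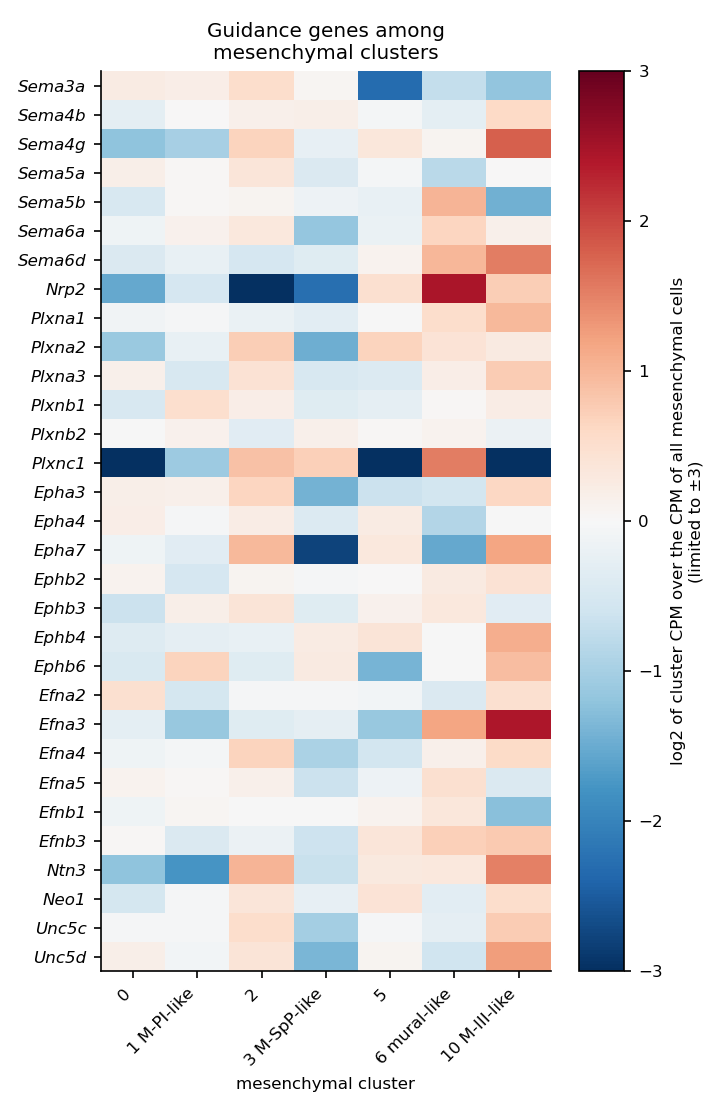
Heat map of 31 guidance genes at 20 CPM or more in a mesenchymal cluster, with 1 row per gene and 1 column per cluster. Colour gives the log2 ratio of the level in a cluster to that of all mesenchymal cells, limited to 3 in either direction. Epha4, Sema5a and Plxnb2 stay pale over the row, while Nrp2 is high in cluster 6 and Epha7 low in cluster 3.

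The epithelial cells fell into cluster 4, with 56 cells led by acinar genes such as Cel and Ptf1a, and cluster 7, with 31 cells led by Fxyd2, Neurog3 and Spp1. Cluster 4 had 28 cells on each plate. Cluster 7 had 21 on plate 8A and 10 on plate 8B, so its levels on 8B rest on few cells. Of 26 guidance genes at 10 CPM or more in either, 4 were at least 2-fold higher in cluster 7 in both plates and 1 at least 2-fold lower, against 5.45% and 3.41% of all genes. Sema3b was 41.9 and 23.5 CPM in cluster 7 of plates 8A and 8B and 7.55 and 7.21 CPM in cluster 4. Efna1 was 30.1 and 55.6 CPM against 7.77 and 15.4 CPM, and Efna2 46.3 and 48.9 CPM against 15.4 and 16.2 CPM. All 3 were therefore higher in the cells led by ductal and endocrine-precursor genes. Unc5b was 4.75 and 24.9 CPM against 0.0427 and 6.08 CPM, and 1 cell held 33.9% of the Unc5b counts of all epithelial cells. Sema3f went the other way, at 6.12 and 9.04 CPM in cluster 7 and 30.8 and 25.3 CPM in cluster 4. The epithelial levels of Sema3b and of Sema3f were thus those of a mixture of both clusters.

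Ligands and their receptors are set side by side here as sums of the levels per kb of each subfamily, without any claim of contact or signalling. Ephrin A genes summed to 203 CPM per kb in mesothelial, 97.6 in mesenchymal, 52.6 in epithelial and 21.2 in endocrine cells, and EphA receptors to 66.1, 112.3, 16.7 and 12 in the same order. Ligand and receptor sums of the A class were thus both lowest in endocrine cells, with ligands highest in mesothelial and receptors in mesenchymal cells. Ephrin B genes summed to 37.8, 39.5, 10.498 and 12.4 CPM per kb and EphB receptors to 37.7, 37.4, 23.8 and 7.38. Class 3 semaphorins summed to 32.7 CPM per kb in mesothelial, 23 in epithelial, 11.4 in mesenchymal and 7.15 in endocrine cells, whereas Nrp2, which serves only some of them, was 9.44, 0.0934, 2.41 and 0.0999. The other neuropilin, Nrp1, lies outside the gene set and was not looked at here. Class 4 semaphorins were highest in endocrine (24 CPM per kb) and epithelial cells (18.3) and lower in mesothelial (12.1) and mesenchymal cells (9.73), while the B plexins that receive them were 16.2, 28.8, 82.1 and 44 CPM per kb in the same order. Class 5 semaphorins stood at 48.5 CPM per kb in mesenchymal cells against 4.11 in mesothelial, 3.19 in epithelial and 0.798 in endocrine cells. Class 6 semaphorins were between 6.52 and 17.9 CPM per kb, and A plexins between 8.36 and 15.2 CPM per kb, in all 4 states. Sema7a and its receptor Plxnc1 were low throughout, at no more than 0.280 and 1.22 CPM per kb.

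Netrins were the family with the lowest levels. The 4 netrins together reached 2.05 CPM per kb in mesenchymal, 1.87 in mesothelial, 1.51 in epithelial and 1.27 in endocrine cells. Ntn3 led in mesenchymal and mesothelial cells (1.73 and 1.75 CPM per kb), Ntn1 in epithelial (1.2) and Ntn4 in endocrine cells (0.713), and Ntn5 had 0 counts in all cells. Ntn1 was held by 27 of 549 cells in all and reached 7.06 CPM in epithelial cells. Neo1 was 27.2 CPM per kb in mesothelial, 11 in mesenchymal, 10.9 in endocrine and 5.88 in epithelial cells. The 4 Unc5 genes differed by state, with Unc5c leading in mesenchymal (17.2 CPM per kb), Unc5a in endocrine (9.13) and Unc5b in mesothelial (5.07) and epithelial cells (1.02). With lengths of merged exons in place of the longest transcript, Unc5c was 8.67 and Neo1 9.27 CPM per kb in mesenchymal cells, which reversed their order. Dcc was at most 5.19 CPM, in endocrine cells, and was found in 31 cells of all states.

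Some guidance genes were close to the limit of these libraries. Epha10, Epha6, Ntn5, Plxnb3 and Sema7a stayed under 1 CPM in every state, and Epha6 and Plxnb3 were each seen in 1 cell. Another 15 genes peaked between 1 and 10 CPM. Among them Epha5 was held by 30.3% and Sema4g by 21.5% of mesenchymal cells at low levels (1.21 and 7.29 CPM), whereas Sema3g was held by 5 and Epha8 by 9 cells of all states, so that a low sum was spread over many cells for some genes and rested on a few for others. Several of these peaked in the 20 endocrine cells through 1 of them. Sema3g was 4.71 CPM there with 98.7% of its counts in 1 cell, and Plxnc1 8.94 CPM, or 4.11 CPM without the highest cell.

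Other genes of the pathways were read from 2 lists, of 14 co-receptors, other ligands and receptors and of 31 intracellular effectors. Between epithelial and mesenchymal cells of the Prox1 line, 2 of 7 genes of the first list at 10 CPM or more were higher in the epithelium and 1 lower, and of 26 effectors 3 were higher and 7 lower, where the rule counted 11.2% and 10.6% of all genes. The effectors lower in the epithelium included 4 genes of the collapsin response mediator family, which carry semaphorin signals to the cytoskeleton: Crmp1, Dpysl2, Dpysl3 and Dpysl4. Dpysl3 was 87.1 CPM in mesenchymal and 2.01 CPM in epithelial cells, and Dpysl2 1068 against 425 CPM, while a further member, Dpysl5, was 0.746 against 23.9 CPM and so higher in the epithelium. Met, the hepatocyte growth factor receptor that can associate with B plexins, was 42 CPM in epithelial and 0.407 CPM in mesenchymal cells. In endocrine cells 3 of 7 genes of the first list were lower than in the epithelium and 0 higher, among them Met (0.906 CPM) and Flrt2 (20.6 against 471 CPM), and of 26 effectors 3 were higher and 6 lower (12.6% and 16.3% of all genes). Mical2, an enzyme that oxidizes actin, was 131.1 CPM in endocrine against 4.70 CPM in epithelial cells. In mesothelial against mesenchymal cells 1 of 5 genes of the first list was higher, Flrt3 (345 against 91.9 CPM), and 2 lower, and of 27 effectors 0 were higher and 4 lower (5.76% and 8.5% of all genes). In both comparisons of lines 0 of 5 genes of the first list were counted, and of 25 effectors Farp2 alone, which was 3.85 CPM in Prox1, 4.93 CPM in Nkx2.5 and 21.9 CPM in Nkx3.2 mesenchymal cells. Over all genes the rule counted 1.3% as higher and 1.97% as lower in Nkx2.5, and 1.17% and 1.65% in Prox1.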

How the data were processed

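Smart-seq2 libraries of 576 sorted cells were analysed. The authors quantified trimmed reads (Trim Galore 0.6.5 per the submitters' processing notes) with kallisto on GRCm38 and used tximport to sum them by gene. The deposited values are expected counts, not normalized. The annotation release is not given in the sources used here. Of the values above 0, 36.0% were not whole (tolerance 1e-06), since kallisto divides reads that fit several transcripts, so reads shared by similar family members may be split between them. Symbols, positions and lengths were taken from GENCODE M21, which gave symbols to 35866 of 36658 genes, and genes without a symbol held 0.605% of counts. The paper's text gives another number of Prox1 cells than the labels, which list 192 per line.

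The study's limits on cells were used (a minimum of 1000 genes and of 100000 counts, a mitochondrial share of no more than 30%), which kept 549 cells and removed 27 (19 of Nkx2.5, 1 of Nkx3.2 and 7 of Prox1). The cells kept were clustered with Seurat 5.3.0 in R 4.3.3 (2000 variable genes without the guidance genes and pathway lists, 20 principal components, cell cycle difference regressed out, resolution 1.9), and each cluster took the state whose markers scored highest. Thresholds for naming clusters were set after the clusters had been seen. Doublets were not called, since cells were sorted 1 per well. The members, gene lists and motifs were chosen with earlier results of these data known.

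Counts were summed over the cells of a group and scaled to CPM. A gene was counted as higher or lower if it had at least 10 CPM in the higher group, differed at least 2-fold in the same direction in every plate or line compared, and exceeded 3 counts on the higher side in each. A side with fewer than 3 counts was set to 3 counts, except in ratios given with a counting interval. Groups under 5 cells were not compared on their own. Exact 95% Poisson and binomial intervals cover counting error only. Named genes were those counted in a comparison (at most 12 per direction, the largest ratios, with Efnb3, Efnb1 and Ephb3 added as values), the 3 members of each family with the highest level per kb in each state, of which the text gives the leading ones, Epha4, and members held by almost no cell. Alternatives were a stricter cell filter, thinning to 100000 counts, the mean CPM of cells, TMM scaling (edgeR 4.0.16), other minimum levels, 3-fold, states without clustering, resolution 1.0, leaving out each plate and lengths of merged exons. Leaving out the highest cell of each group, limiting lines to clusters 0, 1 and 5 and adding the immune-marker cell were chosen after seeing the data, as were the Y-linked genes. Calculations used Python 3.11.15, NumPy 2.4.6, pandas 2.3.3 and SciPy 1.17.1.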

Additional observations from a re-analysis of the deposited data

Results flagged for a closer look

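The ratio of mesothelial to mesenchymal level went opposite ways in the Nkx2.5 and the Nkx3.2 line for 4 guidance genes, and the difference between lines was not tested, since each line is 1 sample and the Nkx2.5 line gave 5 mesothelial cells. Epha2 was at 0.209 of the mesenchymal level in the Nkx2.5 line, from 3 counts in its mesothelial cells, and at 2.21 times that level in the Nkx3.2 line. Ephb1, Efnb3 and Sema4d had 0 counts in mesothelial cells of the Nkx2.5 line, and the ratios there, taken at the limit of 3 counts, were at most 0.151, 0.0484 and 0.159. In the Nkx3.2 line they were 2.97, 2.04 and 9.73.

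The cell of the Prox1 line led by immune markers, which entered no comparison, held Sema4d at 89.3 CPM and Plxnd1 at 82.2 CPM (50 and 46 of its 559774 counts). The highest levels in a cell state were 23.9 and 10.2 CPM.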

How the results depend on the processing

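Of 140 counts of guidance genes recomputed under another setting, 99 were within 1.5 times the reported one. With no minimum level the counts were 9 in place of 4 (higher in epithelial than mesenchymal cells), 8 in place of 4 and 10 in place of 6 (higher and lower in endocrine than epithelial cells), 12 in place of 7 (lower in mesothelial cells), 5 in place of 1 (lower in Nkx2.5) and 4 in place of 1 (lower in Prox1). With a minimum of 5 CPM, 7 were higher in endocrine cells, 2 lower in Nkx2.5 and 2 lower in Prox1. With at least 3-fold, 6 were higher in mesothelial cells, 0 in Nkx2.5 and 0 in Prox1. Thinning and mean CPM of cells each gave 2 lower in Nkx2.5 and 2 lower in Prox1. TMM scaling, states without clustering and resolution 1.0 each gave 1 higher and 2 lower in Nkx2.5. Within clusters 0, 1 and 5, 1 was higher and 3 lower in Nkx2.5, and 0 higher in Prox1. Without the highest cell of each plate or line, 5 of the 10 higher in mesothelial cells were still counted, and 43 of 52 over all comparisons.

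Leaving out 1 plate at a time leaves fewer plates that must go the same way. It gave 6 to 8 genes higher and 16 to 21 lower in epithelial than mesenchymal cells, the most without plate 8A for the higher ones, 6 to 10 higher (the most without plate 8B) and 9 to 12 lower (the most without plate 8A) in endocrine than epithelial cells, 9 to 17 higher (17 without plate 6A and without 6B) and 9 to 15 lower (the most without plate 7B) in mesothelial cells, 2 to 4 higher (the most without plate 7A) and 2 to 6 lower (the most without plate 6A) in Nkx2.5, and 2 to 5 higher (the most without plate 8B) and 1 to 3 lower (3 without plate 8A and without 8B) in Prox1.

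None of the 618 ratios of single genes under another setting reversed, and 522 were within 1.5 times. Part of this was set in advance. A changed minimum level or fold limit leaves every ratio as it was. Where plates were compared, leaving 1 out could not reverse a ratio, since all had to go the same way. For mesothelial against mesenchymal cells, states without clustering and resolution 1.0 each left 1 line, so calls there no longer required both lines. In each of these settings 8 of the 17 ratios moved outside 1.5 times (Epha4, Efna1, Efna3, Nrp2, Plxna2, Sema3c, Sema5a and Sema5b). With merged exons, the leading member was the same in 23 of 24 pairs of family and state. The levels per kb themselves were less stable, and 44 of 72 moved outside their counting interval. Thinning moved 15 of 72 shares of cells. The numbers of cells limit the endocrine (20) and mesothelial (28) levels, and no alternative adds a further sample. No paired analysis was possible because each line is 1 sample and no test was run.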
